A study of Mus musculus with 3 samples.

Results

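Nrf2 ChIP peaks were examined at the loci of 4 genes of glutathione synthesis and recycling, Gclc, Gclm, Slc7a11 and Gsr. The loci were fixed windows of the mm9 build, and every peak that overlapped a window was taken. The windows held 3 peaks of replicate 1, whose list has 2892, and 7 of replicate 2, whose list has 3593. The data are peak lists from chromatin immunoprecipitation and sequencing in wild type C2C12, an established mouse myoblast line whose cells fuse into myotubes in low serum. The myotubes had differentiated for 72 h and were exposed to CDDO-Im, a synthetic triterpenoid that activates Nrf2, at 100 nmol/L for 3 h before fixation. There are 2 ChIP replicates and 1 input, and all 3 samples received the compound, so the peaks show where Nrf2 signal lay after treatment and not what treatment changed. The labels do not state if the duplicates are separate cultures, so their differences may be technical. The input was not analysed here. No read totals come with the lists, and the depth behind them is unknown. No expression values belong to this data set, so neither the myotube state of the cells nor the RNA of the 4 genes could be examined.

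Glutathione is the main small thiol of the cell and reduces peroxides and conjugates electrophiles. Nrf2 is held in the cytoplasm and degraded through its inhibitor Keap1. When electrophiles modify Keap1, Nrf2 accumulates in the nucleus, pairs with a small Maf protein and binds antioxidant response elements (AREs). The 4 genes cover successive steps. Slc7a11 encodes the light chain of the cystine/glutamate exchanger that brings in cystine, Gclc and Gclm encode the catalytic and modifier subunits of glutamate-cysteine ligase, which makes the first bond of glutathione, and Gsr encodes the reductase that returns oxidised glutathione to its reduced form with NADPH.

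Promoter sequences show what letters lie next to the starts of these genes. The RefSeq promoter table used here, of the GRCm38.p6 build, held 2 of the 4 members, Gclm and Slc7a11. The 250 bases before each gene start are given on the gene's strand, 5′ to 3′, and capitals mark the ARE core TGACNNNGC or its reverse complement.
Gclm (chromosome 3, + strand): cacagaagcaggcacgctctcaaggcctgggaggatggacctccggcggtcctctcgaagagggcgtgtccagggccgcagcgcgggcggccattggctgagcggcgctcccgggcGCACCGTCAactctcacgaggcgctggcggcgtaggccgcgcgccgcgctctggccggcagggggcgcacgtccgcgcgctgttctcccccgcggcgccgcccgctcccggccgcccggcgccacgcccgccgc
Slc7a11 (chromosome 3, - strand): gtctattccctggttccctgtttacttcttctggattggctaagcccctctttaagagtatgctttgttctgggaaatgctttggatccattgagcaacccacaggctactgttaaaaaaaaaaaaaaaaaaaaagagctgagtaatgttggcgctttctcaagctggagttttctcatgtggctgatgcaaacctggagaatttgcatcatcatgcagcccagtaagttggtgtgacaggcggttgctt
The Gclm stretch held 1 ARE core on the opposite strand, where it reads TGACGGTGC, 134 to 126 bases before the gene start. The Slc7a11 stretch held no match, which says only that these letters are not in this window. The stretches differed in base composition, with 78.4% G and C in Gclm and 43.2% in Slc7a11. Over all 32851 promoter stretches of the table, 10.2% held the core on either strand, and a match describes letters and not binding. Of 34 glutathione genes listed for this search, 27 had a promoter in the table and 3 of these held the core: Gclm, Ggct, which encodes an enzyme of the gamma-glutamyl cycle, and Ggt1, which encodes a transferase that starts the breakdown of extracellular glutathione. By gene, the share was 11.5% of 27025 genes. The peaks are in mm9 and the promoters in GRCm38.p6, and no coordinates were converted, so whether a peak covers either stretch was not determined, and no distance from a peak to a gene start is given.

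All 4 windows held a peak in replicate 2, and 3 of the 4, those of Gclc, Gclm and Slc7a11, held a peak in replicate 1. In each of these 3 windows the replicate 1 peak overlapped a replicate 2 peak by at least 1 bp, which gave 3 shared regions. The remaining 4 peaks of replicate 2 had no partner in replicate 1. For comparison, chromosomes 2 to 19 were divided into 13212 bins of 170 kb, the mean length of the windows. A replicate 1 peak lay in 6.24% of these bins, a replicate 2 peak in 12% and a shared region in 4.97%. A shared region with scores of at least 200 in both lists, as found in the windows of Gclc and Slc7a11, lay in 0.961% of the bins. The cut of 200 is not alike in the lists, as 9.85% of replicate 1 peaks and 18.4% of replicate 2 peaks reach it. The Gclm region missed it by its replicate 1 score alone, at 103 against 271 in replicate 2. The windows run from 120 to 250 kb, and the genes are known Nrf2 targets chosen with these data in view, so the bins describe how common such peaks were and test nothing. The map of the windows shows how few peaks each held.

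**Figure D1:**
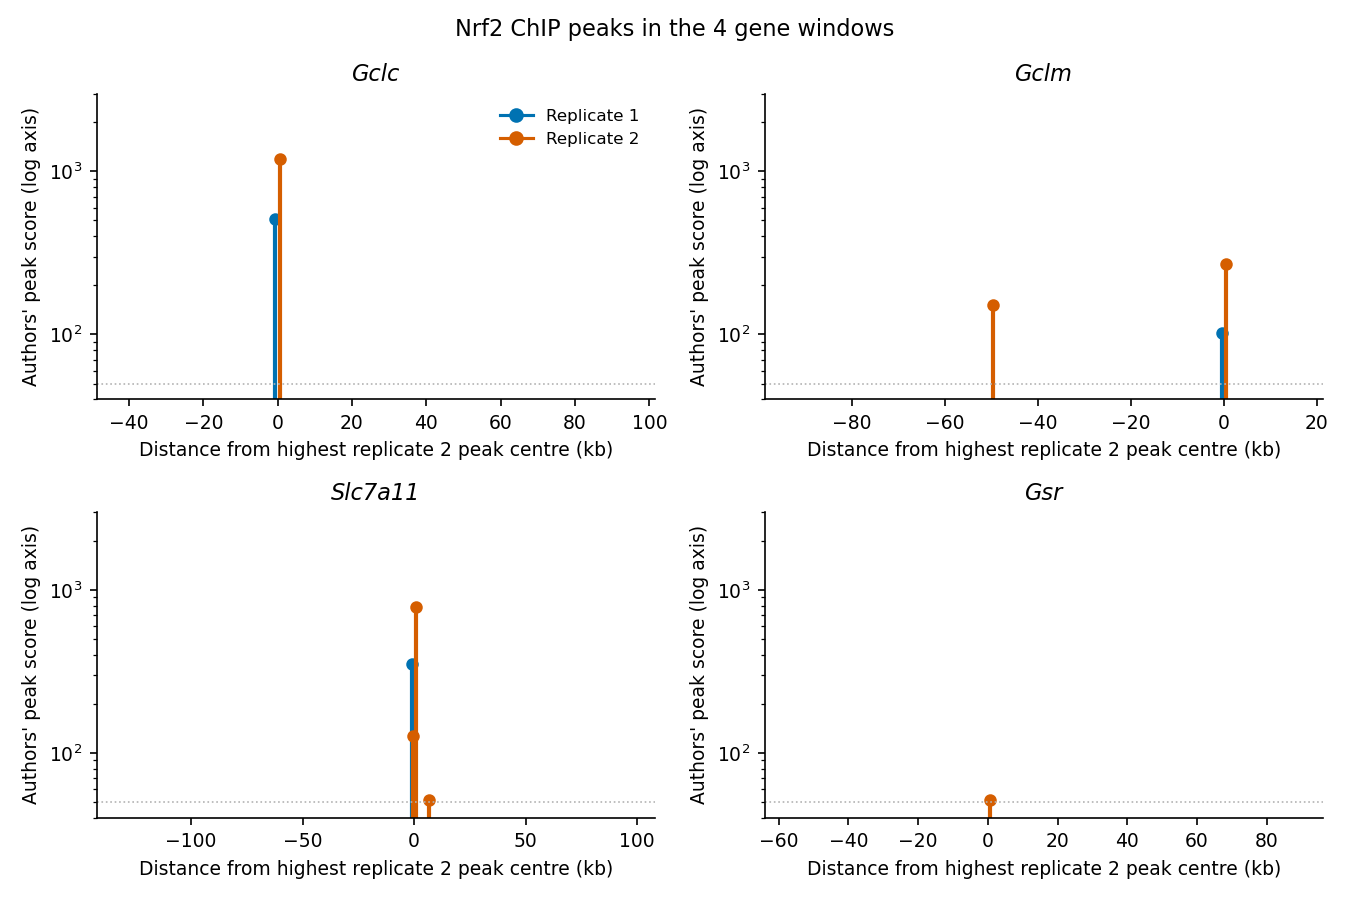
Authors' peak score (log axis) against distance in kb from the centre of the highest replicate 2 peak in each window, for replicate 1 (blue) and replicate 2 (orange). Each stem is 1 peak, with the stems of the replicates drawn slightly apart, the x axis spans the whole window, and the dotted line marks a score of 50; Gclc has 1 stem from each replicate, Gclm and Slc7a11 have further stems from replicate 2, and Gsr has a single stem near the line.

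The score is the authors' own value for each peak. It was taken to be the peak caller's p-value on a scale of minus 10 log10, and is comparable only within a list. The lowest score is about 50 in both lists, and the medians are 80.0 (replicate 1) and 88.7 (replicate 2).

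Cystine uptake is the first step of the route. The Slc7a11 window (chromosome 3, 50100000 to 50350000) held 1 peak in replicate 1, at 50241774 to 50242445, with a score of 351. This was rank 83 of 2892, or the highest 2.87% of the list, and the third highest of 91 peaks on chromosome 3. Replicate 2 had a peak over the same place, at 50241731 to 50242593, with a score of 781. It was also rank 83, here of 3593 (2.31%), and the fourth highest of 148 peaks on chromosome 3. The replicate 1 peak lay wholly inside the replicate 2 peak, with 672 bp of overlap and centres 52.5 bp apart. The shared region took place 54 of 1750 when all shared regions were ordered by the worse of their ranks, and place 48 of 903 on chromosomes 2 to 19.

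In replicate 2 the Slc7a11 window, the longest of the 4 at 250 kb, held 3 peaks, the most of any, while in replicate 1 it held 1, as did those of Gclc and Gclm. Replicate 2 listed another peak on either side, at 50240264 to 50240818 with a score of 127, and at 50247309 to 50247909 with a score of 51.2. The gap to the shared region was 912 bp for the former and 4715 bp for the latter, so the 3 centres lay within 7.07 kb. Neither had a partner in replicate 1, whose single peak here was the only one within 100 kb and had its nearest neighbour in the same list 710 kb away. Close groups of this kind were not rare: of the 2238 peaks of replicate 2 on chromosomes 2 to 19, 12.2% had at least 2 other peaks within 10 kb. The peak scoring 51.2 was close to the end of the list, at rank 3490 of 3593, with 103 peaks scoring lower. Whether the outer peaks are separate sites or parts of a wider signal was not tested.

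**Figure D2:**
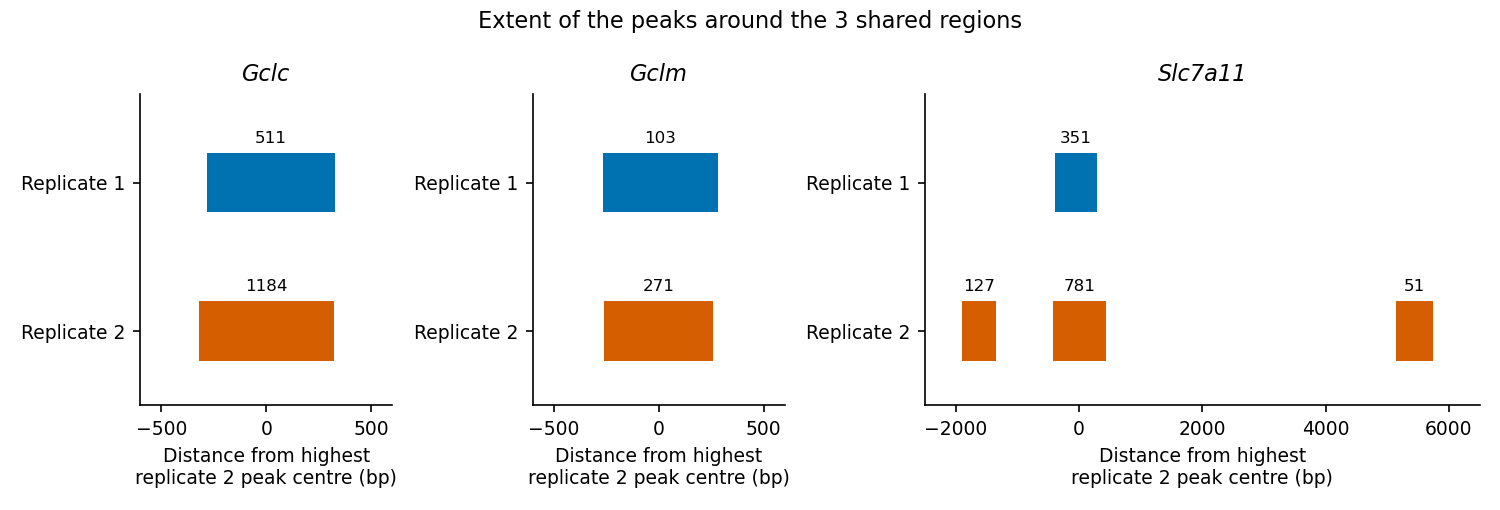
Extent in bp of each peak around the 3 shared regions, relative to the centre of the highest replicate 2 peak, with replicate 1 above (blue) and replicate 2 below (orange) and the authors' score over each bar. The bars of the replicates coincide closely at Gclc and Gclm, and at Slc7a11 replicate 2 adds peaks scoring 127 and 51.2 on either side; the Gclm peak of replicate 2 that lies 50.2 kb away is outside the range drawn.

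Gclc, the catalytic subunit, had the highest-scoring peaks of the 4 windows. Its window (chromosome 9, 77550000 to 77700000) held 1 peak in each list. In replicate 1 it lay at 77598297 to 77598905 with a score of 511, rank 33 of 2892 (1.14%). In replicate 2 it lay at 77598259 to 77598901 with a score of 1184, rank 26 of 3593 (0.724%). It was the highest peak on chromosome 9 in both lists, out of 39 and 92 peaks. The next on that chromosome scored 483 in replicate 1, at 60500783, and 996 in replicate 2, at 122380391. Each of these places held overlapping peaks of both lists, with their order swapped between the lists. Replicate 1 scored 474 at 122380506, and replicate 2 scored 984 at 60500668. The Gclc peaks shared 605 bp, which was 99.3% of the replicate 1 peak and 94.1% of the replicate 2 peak, with centres 21 bp apart. Over the 1613 shared regions with 1 peak from each list the median offset of centres was 43 bp.

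The Gclc region stood alone. The nearest other peak of the same list was 441 kb away in both replicates. On chromosomes 2 to 19, no other peak lay within 100 kb of 51.7% of replicate 1 peaks and 56% of replicate 2 peaks. The lack of a close neighbour alone thus did not set the Gclc region apart. Among all shared regions Gclc took place 23 of 1750 by its worse rank, and place 20 of 903 on chromosomes 2 to 19. Its width was less marked than its score. The peak spanned 609 bp in replicate 1 and 643 bp in replicate 2, where the medians over all peaks were 456 and 612 bp.

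Gclm, the modifier subunit, which raises the catalytic efficiency of the enzyme, had lower-scoring peaks at a pair of places 50.2 kb apart. The window (chromosome 3, 121900000 to 122020000) held a shared region at 121998431 to 121998976. There replicate 1 scored 103, rank 935 of 2892 (32.3%), and replicate 2 scored 271, rank 435 of 3593 (12.1%). The peaks shared 519 bp, all of the replicate 2 peak, and their centres were 7.5 bp apart, closer than at Gclc or Slc7a11. Replicate 1 had the wider peak, 546 against 519 bp, which was the case in 14.1% of the 1613 shared regions with 1 peak from each list. At Gclc and Slc7a11 the replicate 2 peak was the wider. The region took place 500 of 1750 by its worse rank and 324 of 903 on chromosomes 2 to 19.

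The other Gclm peak was listed in replicate 2 alone, at 121948262 to 121948800, with a score of 152 and rank 926 of 3593 (25.8%). In replicate 1 the nearest peak was that of the shared region, 50.2 kb away. Many replicate 2 peaks of this size lacked a partner: of the 902 scoring from 100 to 200 on all chromosomes, 57.6% had one. Over all scores the share was 50% on all chromosomes and 40.8% on chromosomes 2 to 19. In the RefSeq order of protein-coding genes Gclm lies between Abca4, which encodes a retinal lipid transporter, and Dnttip2. A window of this length may hold parts of other genes, and which gene lies nearest to either peak was not determined. Finding the shared region in the window therefore does not assign it to Gclm. The same holds for the peaks in the other windows and their genes.

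Gsr, the recycling enzyme, had the lowest-ranked best peak. Its window (chromosome 8, 34700000 to 34860000) held no peak in replicate 1 and 1 in replicate 2, at 34763710 to 34764040. The score was 51.7, rank 3446 of 3593, with 147 peaks scoring lower, and it was rank 134 of 137 on chromosome 8. At 331 bp it was also narrow, with 225 peaks of the list narrower. The nearest replicate 1 peak was 1115 kb away. Of the 1398 replicate 2 peaks with a score from 50 to 75 on all chromosomes, 30.1% had a partner in replicate 1. A peak like this was thus mostly seen in 1 list. Replicate 2 had a further peak 14.9 kb outside the window, at 34684633 to 34685102, with a score of 59.3. The peak closest to an edge from inside was the shared one of Gclm, 21.0 kb from it in both lists. With the depth unknown, the lack of a replicate 1 peak at Gsr does not show that Nrf2 was absent there.

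**Figure D3:**
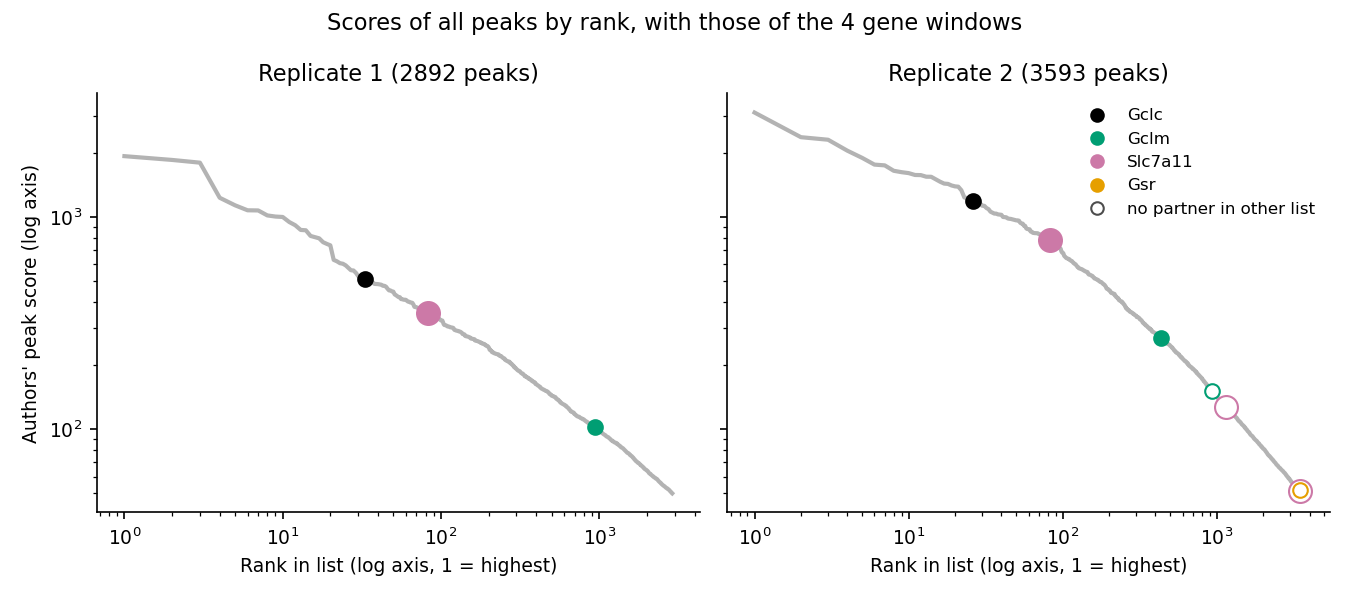
Authors' score against rank for every peak of replicate 1 (left, 2892 peaks) and replicate 2 (right, 3593 peaks), grey lines, both axes logarithmic, with the peaks of the 4 windows as coloured circles (Slc7a11 drawn larger) and open circles for peaks without a partner. Gclc and Slc7a11 lie near the top of both lists at ranks 33 and 83 and at ranks 26 and 83, and Gsr and the lowest Slc7a11 peak lie together at the end of replicate 2.

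The order of the gene windows by their best score was the same in both lists, running from Gclc to Slc7a11 to Gclm. The Gsr window, which had no replicate 1 peak, came last in replicate 2. This is an order of windows, since no peak was assigned to a gene. With 1 value per window and list, no spread within a replicate is available, and the order was not tested. All 3 replicate 1 peaks had a partner, against 66.1% of that whole list and 71.6% of its peaks on chromosomes 2 to 19. In replicate 2, 3 of the 7 peaks had a partner, against 50% of the whole list and 40.8% of its peaks on chromosomes 2 to 19. In the windows, 2 of the 3 replicate 1 peaks scored 200 or more, against 9.85% of that list. In replicate 2, 3 of the 7 did, against 18.4% of the list. These 2 shares are over all chromosomes and were not worked out for chromosomes 2 to 19, where all the windows lie. Those chromosomes held 1312 of 2892 replicate 1 peaks and 2238 of 3593 replicate 2 peaks. The set leaves out chromosome 1, the sex chromosomes and any other sequence, so most replicate 1 peaks lie outside it. The best Slc7a11 peak lay at 2.87 and 2.31% of the whole lists, but at 4.50 and 3.26% on chromosomes 2 to 19. The whole-list shares may therefore overstate the contrast. The median score over the 3 peaks in the windows was 351 in replicate 1, where that of the whole list was 80.0. Over the 7 peaks of replicate 2 it was 152, against 88.7 for the list. The 2 window medians are over different sets of peaks and are not comparable between lists.

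All 3 replicate 1 peaks of the windows had a partner, that of Gclm at a score of 103. In replicate 2 the peaks of the windows scoring 1184, 781 and 271 had partners and those scoring 152, 127, 51.7 and 51.2 had none. Over all peaks of replicate 2 the share with a partner was 30.1% at scores from 50 to 75, 57.6% from 100 to 200, 88.1% from 200 to 500 (95% Wilson interval 85.0 to 90.7%) and 100% of 171 peaks at 500 and above. In replicate 1 the shares in the classes that hold the Gclm, Slc7a11 and Gclc peaks were 87% from 100 to 200, 99.2% from 200 to 500 and 100% of 36 peaks at 500 and above. The intervals cover counting error only. These class shares are over all chromosomes and were not worked out for chromosomes 2 to 19, where all the windows lie. The 4 peaks of replicate 2 without a partner thus lie in score classes where peaks without one were common.

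**Figure D4:**
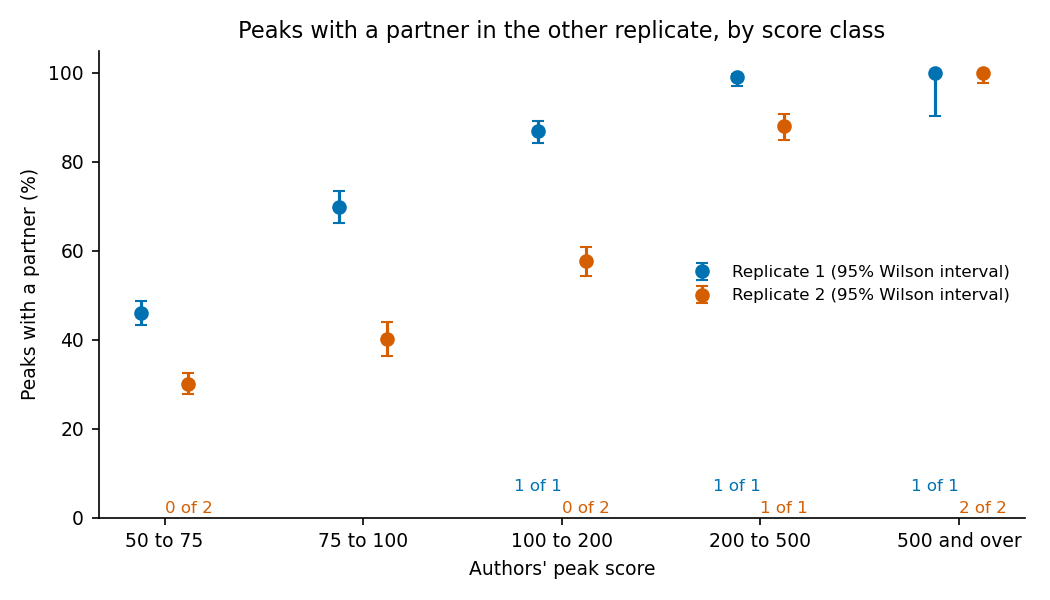
Share of peaks (%) of all chromosomes with a partner in the other replicate against the authors' score class, for replicate 1 (blue) and replicate 2 (orange), with 95% Wilson intervals over peaks. Coloured text along the x axis gives how many peaks of the 4 windows in that class had a partner; in replicate 2 these were 0 of 2 at scores from 50 to 75 and 2 of 2 at 500 and above, where the share over all peaks rose from 30.1 to 100%.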

How the data were processed

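The 2 Nrf2 ChIP replicates each had a peak list, and the input has no list in use here. The lists were made with MACS 1.4, Bowtie2 and bcl2fastq 2.15.0 on mm9, per the submitters' processing notes, which give no roles, settings or control and no Bowtie2 version. The deposited score of each peak, made by the authors, was taken to be the p-value of the peak caller on a scale of minus 10 log10, from that caller's name and the lowest scores of 50, and was used within a list only. It depends on depth, so binding was not compared between replicates by score.

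Windows were those given for the 4 genes in mm9. They were not checked against an mm9 annotation, which was not used here. Starts were counted from 1. Peaks overlapping by at least 1 bp were called partners, and chains of them were merged into shared regions. Tied scores took their mean rank. Peaks with fewer than 2 others of their list within 100 kb (between centres) were called isolated. Shares have 95% Wilson intervals. The overlap code was checked on a copy of the replicate 1 list with planted partners, all other peaks being moved to a chromosome without peaks. The expected overlaps followed the same rule, so this checks the code only. Every peak in the windows is named. Motifs were sought on both strands of the 250 bases before each start in RefSeq's GRCm38.p6 promoters. The members, windows and gene list were chosen with earlier results of these data known, and no test was run on them. The software was matplotlib 3.10.9, SciPy 1.17.1, NumPy 2.4.6 and Python 3.11.15.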

Additional observations from a re-analysis of the deposited data

How the results depend on the processing

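The 3 shared regions remained 3 in number under each alternative run for them, which were overlap of 50% of both peaks, centres within 200 bp and scores of at least 100. The windows with a peak numbered 4 without replicate 1 and 3 without replicate 2. Of 41 alternative values, 18 stayed within 1.5 times the reported count or within the 95% Wilson interval of the reported share or rank, and 23 did not. For a rank, the interval treats the rank as if it were a count out of the list. It was a yardstick only and measures no uncertainty of a peak's rank, so the split of 18 and 23 is descriptive. The windows held 5 replicate 2 peaks in place of 7 at scores of at least 100, and 8 when widened by 50 kb. Among the 1000 highest-scoring peaks of replicate 2, the windows held 4 in place of 7. The best peaks, ranked over chromosomes 2 to 19, lay at 2.06% of the list for Gclc in replicate 1, 15.5% for Gclm in replicate 2, and 4.50 and 3.26% for Slc7a11 in replicates 1 and 2. Over isolated peaks Gclm lay at 28.9 and 14.0%, and the Slc7a11 peak of replicate 2, with 2 others within 100 kb, had no value. Ranked by width, Gclc lay at 26.7 and 43.8%, Slc7a11 at 20.7 and 17.1%, Gclm in replicate 2 at 69.98% and Gsr at 93.7%. Gclc and Slc7a11 therefore placed higher by score than by width, although the Slc7a11 peak was also among the wider ones in both lists. The share of all peaks with a partner in replicates 1 and 2 was 52.2 and 42.0% with overlap of 50% of both peaks, 52.5 and 42.2% with centres within 200 bp, 72.3 and 42.96% at scores of at least 100, and 71.6 and 40.8% on chromosomes 2 to 19. With a longer form of the motif, the core followed by A, 0 of the 27 listed genes and 0 of the members with a promoter matched. No paired analysis was possible because both peak lists belong to 1 ChIP group. The unknown depth limits any reading of peaks found in 1 list.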
